A study of Homo sapiens with 12 samples.

Results

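Paxillin small interfering RNA (siRNA) was compared with nonspecific siRNA in C4-2 cells that had received no hormone. The comparison takes 6 of the 12 libraries of the series: 3 from cells given paxillin siRNA and 3 from cells given nonspecific siRNA, all with ethanol as vehicle. C4-2 is a prostate cancer line that descends from LNCaP and grows under castrate conditions. In both groups the transfection lasted 48 h, serum was withdrawn for 12 h, and ethanol was the only agent of the 24 h that followed. The other 6 libraries, used below as a separate arm, had the same siRNAs and 2.5 nM dihydrotestosterone (DHT), an androgen, in place of vehicle. All cells are 1 line, and whether the paxillin siRNA was 1 sequence or a pool is not given in the sources used here. Libraries are numbered by the replicate number in their labels, and a library named without hormone is a vehicle library. Nothing in the labels says that replicates came from separate cultures. The p-values therefore reflect only how far these libraries differ from one another, which may be technical.

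Paxillin, encoded by PXN, is an adaptor protein of focal adhesions, the sites where integrins join the matrix outside the cell to actin filaments inside it. It has no enzyme activity of its own and brings together kinases such as FAK and SRC, the adaptor p130Cas, and regulators of small GTPases such as RAC1 and RHOA. Paxillin also enters the nucleus and has been described in prostate cells as a link to androgen signalling and to the ERK kinases. Its relatives are HIC-5 (TGFB1I1) and leupaxin (LPXN).

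The 6 vehicle libraries held 11944906 to 29037657 counts, so that 1 count was worth 0.0329 to 0.0815 CPM (counts of a gene in every 1000000 counts). All levels are in CPM of totals scaled by the trimmed mean of M values (TMM), listed in the order of libraries 1, 2 and 3. Mitochondrially encoded genes took 4.43 to 4.98% of the counts under nonspecific and 4.63 to 5.62% under paxillin siRNA. With every library thinned to 11944906 counts, genes with at least 1 count numbered 21540, 22268 and 21880 under nonspecific and 20687, 20744 and 20785 under paxillin siRNA, without overlap. The paxillin libraries thus held fewer detected genes at equal depth, and the DHT arm showed the same order. Luminal prostate markers summed to 9390 to 11200 CPM under nonspecific and 9160 to 10400 CPM under paxillin siRNA. The 4 basal cell markers summed to no more than 0.62 CPM in any of the 6 libraries, with KRT5 alone at 0 counts throughout. The 7 immune markers summed to no more than 0.489 CPM in any library. In bulk RNA, fewer cells of a type and less RNA per cell cannot be told apart.

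PXN itself fell in all 3 paxillin libraries. It (chr12:120210439-120265771, GRCh38, GENCODE release 29 gene) had 149, 139 and 151 CPM under nonspecific siRNA and 16.7, 12.4 and 12.3 CPM under paxillin siRNA. The log2 fold change was -3.40 ± 0.12 (standard error, SE, n = 3 and 3; edgeR quasi-likelihood test, Benjamini-Hochberg adjusted p = 7.39e-12). Paxillin library 1 kept the most PXN transcript, and its log2 ratio to the nonspecific library of the same number was -3.15, against -3.47 and -3.61 in the pairs numbered 2 and 3. Genes chosen in the DHT arm showed the same order of pairs, which not every group of genes did. In the group of highest GC content, described below, the medians were 0.021, 0.201 and 0.111 in pairs 1, 2 and 3. Over 1935 genes called in the DHT arm, with a mean of at least 1 CPM in a vehicle group, the median log2 ratio in the DHT direction was 0.289, 0.391 and 0.425 in pairs 1, 2 and 3. The DHT contrast compares other libraries, but its fit shares the estimate of spread with the vehicle libraries. Same-numbered libraries also deviated together, as given below, so the choice of genes was not independent of the pairs. A link of this order to the PXN level was not tested.

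Of the paralogs, LPXN was not called and TGFB1I1 was too low to test. LPXN had 3.50, 4.07 and 3.12 CPM under nonspecific and 3.62, 3.25 and 3.95 CPM under paxillin siRNA, and the groups overlapped (log2 change 0.01 ± 0.18, edgeR adjusted p = 0.966). TGFB1I1 had 1, 2 and 2 counts under nonspecific and 7, 4 and 3 counts under paxillin siRNA. Its paxillin libraries held more counts, but at this depth no fold is given.

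Across the 16115 genes with enough counts, 3303 differed between the siRNAs at an adjusted p under 0.05 in edgeR's quasi-likelihood test, 20.5% of those tested. Of these 1727 were higher (10.7%) and 1576 lower (9.78%) under paxillin siRNA, and these shares are the background for the list counts below that name no other setting. Most differences were small: the median size among called genes was 0.405 on the log2 scale, 527 rose and 465 fell by 1.5-fold or more, and 231 rose and 239 fell by 2-fold or more. The 3 paxillin libraries lay wholly above the 3 nonspecific ones in 18.1% of tested genes and wholly below them in 17.7%. Among the called genes, 1640 of 1727 rises and 1480 of 1576 falls were separated in this way. The count was 1848 without paxillin library 3 and 1966 without nonspecific library 2, and 1806 and 1901 of those calls were among the 3303. A list count under another setting is to be read against the shares of all genes under that setting. With the replicate number as a block 14.8% of tested genes were higher and 13.5% lower, and with the block and a correction for GC content and length 16% and 14.3%. That correction alone gave 11.3% and 9.81%, the vehicle libraries alone 9.73% and 8.29%, and no filter on low counts 5.77% and 4.4%. DESeq2 gave 11.3% and 9.53%, and limma-voom 10.4% and 9.74%. The shares were 6.22% and 5.71% without nonspecific library 2, 7.68% and 6.04% without paxillin library 2, and 6.01% and 5.24% without paxillin library 3. Without 1 of the other 9 libraries, 9.04 to 11.5% were higher and 7.42 to 9.82% lower. The plot of change against level shows that PXN, CRISP3 and NOS3 stand away from other genes of their level.

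**Figure D1:**
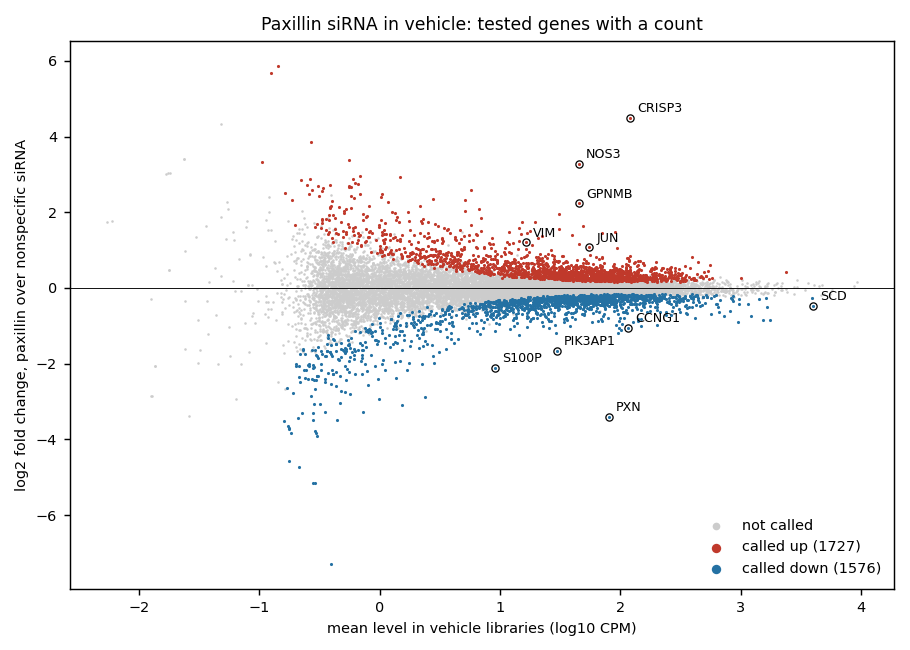
Log2 fold change of each tested gene with a count in vehicle, under paxillin over nonspecific siRNA in vehicle (vertical axis) against its mean level over both groups in log10 CPM (horizontal axis). The 1727 genes called higher are red and the 1576 called lower are blue; PXN lies at -3.40 and CRISP3 at 4.50, while most called genes lie near the line of no change.

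Among genes that reached a mean of 5 CPM in either group, the largest rise was that of CRISP3, a secreted cysteine-rich protein known from prostate tumours (chr6:49727384-49744437). It went from 11.2, 9.38 and 10.0 CPM to 98.2, 198 and 391 CPM, a log2 change of 4.50 ± 0.43 (edgeR adjusted p = 4.68e-06). Separated groups were part of the rule that chose the largest rises and falls. The 3 paxillin libraries differed among themselves, with library 3 the highest. NOS3, the endothelial nitric oxide synthase (chr7:150990995-151014588), went from 10.0, 8.49 and 7.26 CPM to 64.6, 78.4 and 102 CPM (log2 change 3.28 ± 0.19, edgeR adjusted p = 9.35e-09). GPNMB, a membrane glycoprotein of pigment cells and macrophages, rose from 14.6, 16.6 and 15.6 CPM to 49.8, 69.0 and 104 CPM (log2 change 2.24 ± 0.25). NOS3 and GPNMB were also highest in paxillin library 3.

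The other 12 of the 15 largest rises covered several roles. DNASE1L3, a secreted nuclease, rose by 2.59 on the log2 scale. VAV3, an exchange factor for small GTPases, went from 1.22, 1.74 and 1.92 CPM to 4.54, 8.28 and 12.9 CPM (log2 change 2.34 ± 0.30). CLEC7A, a lectin receptor for fungal glucans, changed by 2.10 and ANGPT2, a ligand of the TIE2 receptor on blood vessels, by 2.04. UNC13C, a factor of vesicle priming at synapses, rose from 12.3 to 49.1 CPM on average and DNAH8, an axonemal dynein, from 2.99 to 10.9 CPM. GSTA1, a glutathione transferase, and TNFSF15, a cytokine of the tumour necrosis factor family, changed by 1.75 and 1.74. The remaining members were TUBA3D, an alpha tubulin, at 1.67, SFTPA2, a surfactant protein, at 1.63, RUNX2, a transcription factor of bone, at 1.57, and ENC1, an actin-binding adaptor, at 1.55. TUBA3D and SFTPA2 have close copies (TUBA3E and SFTPA1), and how the counting treated shared reads is not given in the sources used here, so their values are uncertain. In 13 of the 15 genes, the exceptions being UNC13C and RUNX2, paxillin library 1 was the lowest and library 3 the highest of its group.

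**Figure D2:**
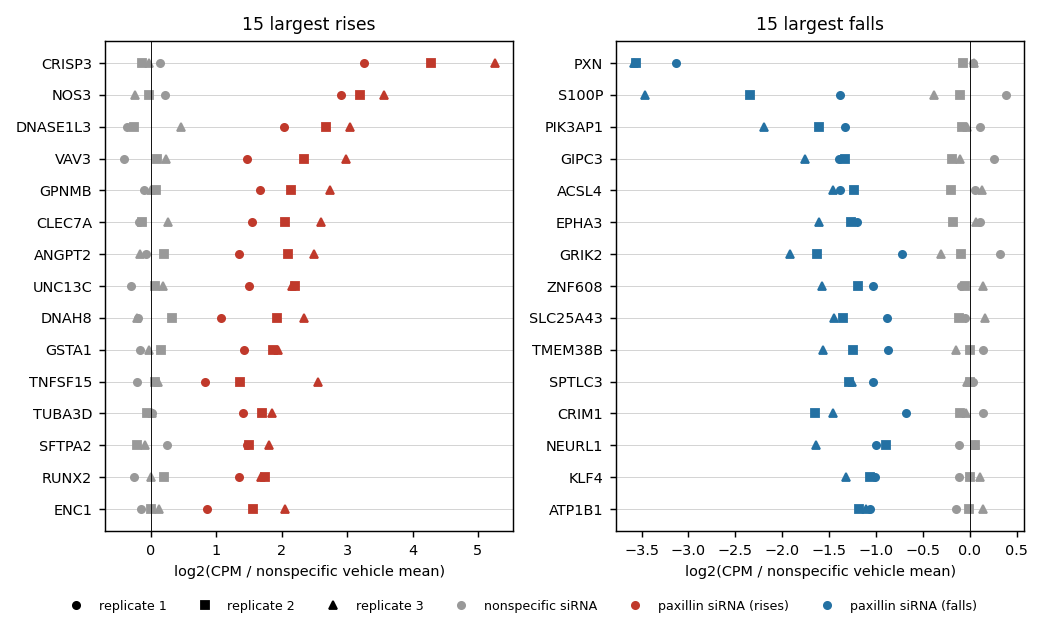
Level of the 15 largest rises (left) and 15 largest falls (right) in each vehicle library, as log2 of its CPM over the mean of the 3 nonspecific vehicle libraries; symbols give the replicate number and grey marks nonspecific siRNA. Coloured paxillin points never overlap grey points because separation was part of the rule that chose the genes; PXN in library 1 is the mildest of its group.

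Among genes at that level, the largest fall after PXN was that of S100P, a calcium-binding protein of epithelial cells (chr4:6693069-6697170). It had 19.3, 13.8 and 11.4 CPM under nonspecific and 5.66, 2.92 and 1.34 CPM under paxillin siRNA (log2 change -2.11 ± 0.37, edgeR adjusted p = 0.000801). PIK3AP1, an adaptor of phosphoinositide 3-kinase (chr10:96593312-96720514), went from 48.7, 42.4 and 44.0 CPM to 17.9, 14.7 and 9.85 CPM (log2 change -1.66 ± 0.17, edgeR adjusted p = 9.22e-06). Both were lowest in paxillin library 3. TMEM38B, a potassium channel of intracellular membranes, fell from 146, 132 and 119 CPM to 72.1, 55.8 and 44.5 CPM, and ATP1B1, the beta subunit of the sodium pump, from 126, 139 and 154 CPM to 66.8, 61.6 and 64.9 CPM. Both genes were abundant, with log2 changes of -1.20 ± 0.12 and -1.12 ± 0.09, and their groups were separated, as the rule that chose them required.

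The other 10 largest falls ranged from -1.46 for GIPC3, a PDZ domain protein of hair cells, to -1.13 for KLF4, a transcription factor of differentiating epithelium. ACSL4, which activates arachidonic acid, changed by -1.35, and SPTLC3, a subunit of the enzyme that starts sphingolipid synthesis, by -1.19. EPHA3, a receptor of ephrins, and GRIK2, a glutamate receptor, fell by similar amounts (-1.34 and -1.28). ZNF608, a zinc finger protein, SLC25A43, a mitochondrial carrier, CRIM1, a membrane protein that binds BMPs, and NEURL1, a ubiquitin ligase, changed by -1.25, -1.20, -1.18 and -1.15.

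Of the 8 most abundant called genes, 7 fell and 1 rose. SCD, the desaturase that makes oleic acid, was the most abundant, at 4417, 4598 and 4860 CPM against 3381, 3248 and 3386 CPM (log2 change -0.47 ± 0.07, edgeR adjusted p = 0.000246). NAP1L1, a histone chaperone, had 2299, 2416 and 2014 CPM against 1668, 1198 and 902 CPM, lowest in paxillin library 3, and ABHD2, a lipid hydrolase, had 2136, 1960 and 1839 CPM against 1187, 1072 and 1049 CPM. PRUNE2 (-0.50) and TMBIM6, an inhibitor of cell death in the endoplasmic reticulum (-0.29), also fell. SPON2, a secreted matrix protein of prostate tumours, rose from 2262, 1847 and 2039 CPM to 2704, 2627 and 2869 CPM. MME, the membrane protease neprilysin, and ACSL1, a fatty acid ligase, were called at -0.27 and -0.26, but neither call survived every omission of 1 library. For MME the adjusted p was 0.067, 0.0945 and 0.0611 without nonspecific library 2, paxillin library 2 and paxillin library 3. For ACSL1 it was 0.0752, 0.106, 0.075 and 0.0889 without nonspecific libraries 2 and 3 and paxillin libraries 1 and 2.

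Gene lists were described next, each by its tested members, the number called in each direction and its median, against the shares of 10.7% and 9.78% and the median of -0.005 for all genes. Among paxillin's own partners in focal adhesions, individual adaptors moved both ways. Of 39 tested adaptors and kinases, PXN included, 9 rose and 5 fell, with a median of 0.007, and their summed level was 2312 to 2428 CPM under nonspecific and 2219 to 2316 CPM under paxillin siRNA. TLN2, the second talin, which links integrins to actin, rose from 3.26, 3.60 and 2.93 CPM to 6.18, 8.54 and 8.55 CPM (log2 change 1.24 ± 0.21, edgeR adjusted p = 0.000593), while TLN1, the more abundant talin, changed by -0.25 ± 0.06. The kindlins, which help talin to activate integrins, also parted: FERMT1 changed by 0.60 ± 0.11 and FERMT2 by -0.68 ± 0.11. BCAR1, which encodes p130Cas, a direct partner of paxillin, rose from 71.6, 56.3 and 80.4 CPM to 90.7, 95.0 and 102 CPM, and PARVB, an actin-binding parvin, changed by 0.46. TES, a LIM protein of adhesions, changed by -0.65. The kinases FAK and SRC, which act on paxillin, were not called: PTK2, the FAK gene, had 113, 100.3 and 108 CPM against 104, 99.9 and 100.5 CPM (log2 change -0.07 ± 0.07, edgeR adjusted p = 0.47), and SRC changed by 0.04 ± 0.06 (edgeR adjusted p = 0.708). The number of risen adaptors was 4, 5 and 4 without nonspecific library 2, paxillin library 2 and paxillin library 3. The number of fallen ones was 8 with a correction for GC content and length.

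Integrins and matrix genes had 3 rises and 5 falls among 32 tested, with a median of 0.101. ITGAV, the alpha v integrin, fell from 139.6, 123 and 115.8 CPM to 80.2, 68.8 and 68.0 CPM (log2 change -0.80 ± 0.08, edgeR adjusted p = 8.10e-06). ITGB1, the common beta 1 chain, fell from 545, 507 and 486 CPM to 434, 361 and 384 CPM, and FN1, the fibronectin gene, from 646, 538 and 419.7 CPM to 429, 359 and 353 CPM, with overlapping groups (edgeR adjusted p = 0.00537). LAMB3, a laminin chain of epithelial anchoring, ITGA1, a collagen receptor chain, and COL4A2, a basement membrane collagen, rose from low levels by 1.99 ± 0.34, 1.77 ± 0.29 and 0.79 ± 0.14. ITGA1, for example, had 0.978, 1.01 and 0.978 CPM against 2.20, 3.39 and 4.60 CPM. The number of risen genes was 5 and 8 without nonspecific library 1 and paxillin library 1, 6 and 5 without DHT libraries 1 and 3 of paxillin siRNA, and 5 with the replicate number as a block.

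Genes of the actin filament and of the RHOA, RAC1 and CDC42 GTPases changed in both directions, with more rises than falls called and list medians near 0. Over all tested genes 10.7% were higher and 9.78% lower. Of 39 tested actin, myosin and tropomyosin genes 6 rose and 2 fell (median 0.014), and of 34 GTPases of that family and their regulators 8 rose and 4 fell (median 0.01). TMSB4X, which sequesters actin monomers, had 39.4, 37.0 and 41.0 CPM against 54.6, 63.0 and 75.8 CPM (log2 change 0.72 ± 0.13), and ACTN4, which crosslinks filaments, had 190.4, 210.5 and 234 CPM against 264, 278 and 315 CPM. CFL2, a cofilin that severs filaments, fell (-0.76 on the log2 scale). RHOB, an endosomal GTPase, rose from 96.3, 97.7 and 109 CPM to 140.4, 175 and 174 CPM (log2 change 0.69 ± 0.10, edgeR adjusted p = 0.00014), and RHOU, a relative of CDC42, by 0.46. Of the exchange factors, VAV3 and VAV2 rose by 2.34 and 0.43, whereas DOCK1, which works with p130Cas on RAC, changed by -0.30 and ARHGEF2, which acts on RHOA, by -0.27. The number of fallen GTPase genes was 2 without paxillin library 2, without paxillin library 3 and with no filter on low counts. The number of fallen actin genes was 4 with the replicate block and 1 without nonspecific library 2, paxillin library 3, or library 2 of either siRNA under DHT.

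Cell junction genes moved in both directions. Of 30 tested cadherin and junction genes 6 rose and 4 fell, with a median of 0.066. The desmosomal cadherins DSC2 and DSG2 fell, DSG2 from 745, 712 and 644 CPM to 489.9, 417 and 398 CPM (log2 change -0.69 ± 0.08) and DSC2 from 88.1, 89.8 and 90.4 CPM to 54.1, 50.5 and 56.6 CPM (log2 change -0.74 ± 0.08, edgeR adjusted p = 2.46e-05). Other junction genes rose, namely CLDN3, a claudin of tight junctions (0.58 ± 0.08), PKP3, a desmosomal plaque protein (0.38 ± 0.07), and PERP, a tetraspan protein of desmosomes (0.39 ± 0.07). CLDN12, another claudin, fell (-0.60 on the log2 scale). The number of risen junction genes was 3 without nonspecific library 2, nonspecific library 3 or paxillin library 3. Of 9 tested genes of mesenchymal transition 1 rose and 1 fell (2 with the replicate block). VIM, an intermediate filament of mesenchymal cells, rose from 9.05, 10.9 and 9.81 CPM to 17.9, 24.7 and 26.7 CPM (log2 change 1.20 ± 0.15, edgeR adjusted p = 5.26e-05). CDH2, TWIST1, ZEB1 and ZEB2 were too low to be tested. Among 13 luminal prostate markers 5 rose and 2 fell (median -0.018), with KRT8, a keratin of luminal cells, at 0.44 ± 0.09, against FOXA1, a pioneer factor, at -0.30 ± 0.07. The number of risen luminal markers was 2, 3 and 3 without nonspecific library 2, paxillin library 2 and paxillin library 3, and 3 with the GC and length correction. The number of fallen ones was 1 without paxillin library 3.

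Immediate early and YAP target genes showed a few separate changes. Of 26 tested genes of ERK feedback and the immediate early class, 4 rose and 1 fell (median 0.068). JUN, a subunit of the AP-1 transcription factor, rose from 36.4, 34.6 and 35.3 CPM to 64.8, 76.6 and 81.7 CPM (log2 change 1.07 ± 0.09, edgeR adjusted p = 1.97e-06). JUND, another subunit, and ATF3, a stress factor that pairs with JUN, changed by 0.48 ± 0.10 and 0.44 ± 0.08, and DUSP2, a phosphatase that acts on ERK, by 0.60 ± 0.11. FOS and EGR1, which ERK induces quickly, had mean levels of only 1.11 and 0.935 CPM under nonspecific siRNA and were not called (log2 changes -0.62 ± 0.40 and -0.38 ± 0.31). MYC had 217, 154 and 152 CPM against 231, 202 and 191 CPM, with overlapping groups and a log2 change of 0.26 ± 0.16 (edgeR adjusted p = 0.277, and 0.00331 with the replicate number as a block). CCND1, the cyclin D1 gene, changed by -0.06 ± 0.07 and was not called. With the replicate block 8 of these genes rose and 3 fell, and 7 rose with no filter on low counts. With the GC and length correction JUND had an adjusted p of 0.098. The 1 fall, of SPRED1, was lost without nonspecific libraries 1 or 2 or any paxillin vehicle library (adjusted p of 0.0566 to 0.0979). Among 17 tested YAP and TEAD targets 2 rose and 3 fell. The fallen ones were CRIM1 (-1.18), AMOTL1, an angiomotin (6.52, 8.26 and 7.44 CPM against 3.68, 3.65 and 3.33 CPM), and PTPN14, a phosphatase (24.1, 24.9 and 20.4 CPM against 12.1, 12.7 and 12.6 CPM), and the number of rises was 1 without nonspecific library 2 and with the GC and length correction, and 0 without paxillin library 3. CTGF and ANKRD1, the usual reporters of YAP activity, had no counts in any vehicle library, which allows up to 0.0986 to 0.245 CPM (3 counts, counting error only).

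KLK3, TMPRSS2 and FKBP5, reporter genes of the androgen pathway, were not called in the main fit without hormone, while other androgen-induced genes were. KLK3, which encodes prostate-specific antigen, had 5026, 4030 and 3704 CPM against 4020, 3398 and 3111 CPM (log2 change -0.28 ± 0.11). Its groups overlapped, and its edgeR adjusted p was 0.0729, against 0.00854 with the replicate block; it was also called by DESeq2 (0.0367), with the GC and length correction (0.0394), and without nonspecific library 3 (0.0343) or paxillin library 1 (0.0167). TMPRSS2, a membrane protease, and FKBP5, a chaperone of steroid receptors, changed by -0.19 ± 0.15 and 0.01 ± 0.10. As a list, 44 tested androgen-induced genes held 12 rises and 7 falls, with a median of -0.027. Over all tested genes 10.7% were higher and 9.78% lower. ACSL3, a fatty acid ligase, rose from 164, 159 and 157 CPM to 205, 218 and 271 CPM, KRT19, a keratin, rose by 0.68, FZD5, a Wnt receptor, by 0.50, and CHRNA2, a nicotinic receptor chain with means below 1 CPM, by 1.61. ELL2, an elongation factor, fell from 25.1, 30.6 and 31.4 CPM to 17.3, 16.7 and 13.6 CPM (log2 change -0.89 ± 0.09, edgeR adjusted p = 9.02e-06), and so did HERC3, a ubiquitin ligase (-0.55), and PLPP1, a lipid phosphatase (-0.37). The number of falls was 3 without paxillin library 3, where 5.24% of all tested genes fell, and 14 with the replicate block, where 13.5% fell. Of 17 androgen-repressed genes 1 rose and 3 fell (median 0.016). MET, the receptor of hepatocyte growth factor, fell from 3.10, 2.75 and 3.91 CPM to 1.58, 1.82 and 1.59 CPM. The 1 rise, of UGT2B15, which inactivates androgens, was lost with DESeq2 and limma-voom and without nonspecific library 1, nonspecific library 2 or paxillin library 3 (adjusted p of 0.0508 to 0.183). With the replicate block 3 of these genes rose.

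Genes of the integrated stress response and of amino acid supply fell most often of the lists with at least 9 tested members. This response is run by ATF4, a transcription factor that is translated when amino acids are short or proteins misfold, and that switches on amino acid synthesis and transport genes. Of 32 tested members 13 fell and 4 rose, with a median of -0.227. The 250 bases upstream of the fallen genes that hold TGATGNAA are shown, since these are the core letters of the element that ATF4 binds together with a CEBP factor. They are from RefSeq, build GRCh38.p14, 5′ to 3′ on the gene's strand, ending at the base before the RefSeq start, with each match on either strand in capitals; AARS is a tRNA synthetase discussed below.
ASNS (chr7:97872409-97872658, minus strand): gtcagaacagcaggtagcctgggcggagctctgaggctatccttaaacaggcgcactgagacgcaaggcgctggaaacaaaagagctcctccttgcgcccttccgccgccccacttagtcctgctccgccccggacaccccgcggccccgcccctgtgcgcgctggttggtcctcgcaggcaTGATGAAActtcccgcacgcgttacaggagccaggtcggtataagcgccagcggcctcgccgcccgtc
CHAC1 (chr15:40953221-40953470, plus strand): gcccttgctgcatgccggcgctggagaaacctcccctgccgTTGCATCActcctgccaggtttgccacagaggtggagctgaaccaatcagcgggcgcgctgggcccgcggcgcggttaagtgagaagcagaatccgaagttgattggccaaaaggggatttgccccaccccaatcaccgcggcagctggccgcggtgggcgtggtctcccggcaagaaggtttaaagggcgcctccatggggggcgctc
FGF21 (chr19:48755274-48755523, plus strand): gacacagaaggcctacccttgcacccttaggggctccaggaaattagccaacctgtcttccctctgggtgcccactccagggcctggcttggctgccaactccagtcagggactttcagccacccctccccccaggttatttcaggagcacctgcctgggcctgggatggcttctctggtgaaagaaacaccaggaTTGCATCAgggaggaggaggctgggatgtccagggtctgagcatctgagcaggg
AARS (chr16:70289507-70289756, minus strand): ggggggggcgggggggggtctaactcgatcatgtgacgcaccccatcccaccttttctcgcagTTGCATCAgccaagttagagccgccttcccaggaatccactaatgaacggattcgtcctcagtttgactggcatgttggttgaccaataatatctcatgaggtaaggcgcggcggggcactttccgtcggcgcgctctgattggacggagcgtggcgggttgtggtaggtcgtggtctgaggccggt
Of 9 fallen stress response members with a promoter entry, 3 held the motif, against 1 of 17 other members, 1.41% of the 10461 tested genes with an entry and 3.19% of all 27305 promoters. The match began 68 bases before the start in ASNS, 209 in CHAC1 and 54 in FGF21. A match describes these letters only.

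ASNS, the asparagine synthetase (chr7:97852118-97872542), fell from 267, 302 and 328 CPM to 208, 193 and 148 CPM (log2 change -0.71 ± 0.11, edgeR adjusted p = 0.000305). All 3 paxillin libraries were below all nonspecific ones, and library 3 was the lowest. CTH, which makes cysteine from cystathionine, fell from 27.6, 34.3 and 34.7 CPM to 22.5, 17.6 and 14.7 CPM (log2 change -0.83 ± 0.15), and FGF21, a hormone released under stress, from 4.40, 3.57 and 3.12 CPM to 1.78, 0.948 and 1.12 CPM (log2 change -1.49 ± 0.31). CHAC1, which degrades glutathione, changed by -0.53 ± 0.13, a call lost without paxillin library 3 (log2 change -0.40, adjusted p = 0.0637). ATF4 and its target DDIT3, named although outside the rule for named genes, missed the threshold at -0.21 ± 0.08 and -0.29 ± 0.10 (edgeR adjusted p = 0.0573 and 0.0516; 0.00939 and 0.00679 with the replicate block). The risen members were ATF3, CEBPG, a CEBP family factor (0.26 ± 0.06), and 2 enzymes of proline synthesis. Those were PYCR1 (0.26 ± 0.06, adjusted p = 0.0615 with the GC and length correction) and ALDH18A1 (0.23 ± 0.08). ALDH18A1 was lost in 8 omissions of 1 library and with the vehicle libraries alone (adjusted p of 0.0501 to 0.186). Without paxillin library 3 the falls numbered 6. In the DHT arm, where 7% of all tested genes fell and 6.34% rose, 21 members fell and 0 rose (1 at an unadjusted p under 0.05, 0 by DESeq2 and limma-voom).

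Aminoacyl-tRNA synthetases, several of which ATF4 also controls, had 5 falls and 2 rises among 20 tested, with a median of -0.133. AARS, the alanine enzyme, fell from 442, 372 and 399 CPM to 320.5, 272 and 271 CPM (log2 change -0.49 ± 0.08, edgeR adjusted p = 0.000629), and its upstream sequence above holds the motif 187 bases before the start. Of the 5 fallen synthetases, all found under their current RefSeq names, AARS alone held it. Other members were searched only under their deposited symbols, so just 2 were matched, of which 0 held it. The motif's share in fallen and other synthetases therefore cannot be compared. SARS and TARS, for serine and threonine, changed by -0.35 ± 0.07 and -0.31 ± 0.06, and VARS, for valine, rose by 0.27 ± 0.06 (adjusted p = 0.137 with the GC and length correction). The falls numbered 3 without nonspecific library 2, nonspecific library 3 or paxillin library 3, and 9 with the replicate block. The rises numbered 1 with the GC and length correction, with limma-voom, with the vehicle libraries alone, and in all omissions of 1 library except library 1 of nonspecific and library 3 of paxillin siRNA under DHT.

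Hexosamine and glycosyltransferase genes had 8 falls and 2 rises among 22 tested, with a median of -0.189. The hexosamine pathway makes UDP-GlcNAc, the sugar donor for protein glycosylation and for O-GlcNAc. UAP1, its last enzyme, fell from 297, 301 and 279 CPM to 220.4, 186 and 157 CPM (log2 change -0.64 ± 0.09, edgeR adjusted p = 9.83e-05), and PGM3, the enzyme before it, changed by -0.44 ± 0.08. MGEA5, which removes O-GlcNAc, fell from 201, 216 and 191 CPM to 143, 129.7 and 118 CPM (log2 change -0.64 ± 0.07), and GALNT7, which starts mucin-type chains, from 207, 182 and 155 CPM to 121, 87.8 and 85.5 CPM (log2 change -0.88 ± 0.12). NANS, which makes sialic acid, rose by 0.33 ± 0.08. The falls numbered 5, 5, 4 and 4 without nonspecific library 1, nonspecific library 2, paxillin library 2 and paxillin library 3, and 5 with the GC and length correction. The rises numbered 1 without nonspecific library 2 or paxillin library 3. The list's median transcript GC content was 42.9%, against 48.6% for all genes.

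Polyamine genes had 4 falls and 1 rise among 13 tested, with a median of -0.218. AMD1, the decarboxylase that supplies aminopropyl groups, fell from 563, 560.3 and 586 CPM to 455, 427 and 409 CPM (log2 change -0.41 ± 0.06), and OAZ2, an antizyme that restrains ornithine decarboxylase, from 136, 134 and 139 CPM to 106, 96.0 and 85.0 CPM (log2 change -0.51 ± 0.08, edgeR adjusted p = 0.000225). The falls numbered 2 without paxillin library 3 and 8 with the block and the GC and length correction together. The rises numbered 2 with that correction, with or without the block. The 1 rise, of SMS, the spermine synthase, was lost without nonspecific library 1, nonspecific library 3, paxillin library 1 or paxillin library 3 (adjusted p of 0.0536 to 0.0891).

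Ribosome biogenesis genes rose without a fall. Of 38 tested, 14 rose and 0 fell (0 also at an unadjusted p under 0.05 and by DESeq2 and limma-voom), with a median of 0.139, and their summed level was 4352 to 4364 CPM under nonspecific and 4754 to 4866 CPM under paxillin siRNA. POLR1C, a subunit of RNA polymerases I and III, rose from 35.5, 34.1 and 35.9 CPM to 46.0, 45.7 and 48.3 CPM (log2 change 0.41 ± 0.06, edgeR adjusted p = 0.000262), and RRP12, an export factor of the small subunit, from 69.5, 66.4 and 75.6 CPM to 82.6, 89.9 and 95.3 CPM (log2 change 0.34 ± 0.07). RRS1 and BOP1, assembly factors of the large subunit, changed by 0.41 ± 0.09 and 0.39 ± 0.09, and BOP1 had an adjusted p of 0.0546 with the GC and length correction. The changes were small and the groups stood apart in the 4 genes. The rises numbered 7 without nonspecific library 2 and 8 without paxillin library 3. CACGTG, the E-box that MYC binds with its partner MAX and that reads the same on both strands, was searched in the same 250 bases. It was held by 1 of the 10 risen members with an entry and by 3 of 21 other members, against 9.08% of the tested genes with an entry and 6.49% of all promoters. Of the 67 tested proteins of the ribosome itself, 0 rose and 0 fell by edgeR (median -0.058; 0 and 3 at an unadjusted p under 0.05, 0 and 1 by DESeq2, 0 by limma-voom), 10 fell with the replicate block, and 4 fell without paxillin library 1. With library 3 of either siRNA under DHT left out, or GC content and length corrected for, 1 fell. Their medians in pairs 1, 2 and 3 were 0.141, -0.128 and -0.183. In the DHT arm the biogenesis list had 0 rises (1 at an unadjusted p under 0.05, 0 by DESeq2 and limma-voom) and 2 falls. The test of the difference between the arms called 0 of its members, with or without the replicate block.

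Nuclear genes of the respiratory chain had 9 rises and 3 falls among 44 tested, with a median of 0.034. SDHA of complex II, UQCRC1 and CYC1 of complex III and COX5B of complex IV changed by 0.35 ± 0.06, 0.35 ± 0.06, 0.35 ± 0.06 and 0.34 ± 0.07. CYC1, for example, had 200.2, 182 and 192 CPM against 242, 246 and 242 CPM. The fallen genes were NDUFV2, ATP5O and COX6C. With 1 library left out, their log2 changes were -1.98 to -1.19, -0.456 to -0.305 and -0.327 to -0.181. The NDUFV2 call was lost without nonspecific library 1 or any paxillin vehicle library (edgeR adjusted p of 0.0626 to 0.151). The falls numbered 0 without paxillin library 3 and with the GC and length correction, and 1 without nonspecific library 1 or paxillin library 2 and with the vehicle libraries alone. Of the 13 mitochondrially encoded genes 0 were called, by edgeR, DESeq2 or limma-voom or at an unadjusted p under 0.05 (median 0.088), and their medians in pairs 1, 2 and 3 were -0.165, 0.003 and 0.401.

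In the cell cycle lists, DNA replication genes had 9 rises and 1 fall among 49 tested (median 0.124), and mitosis genes had 0 rises and 3 falls among 46 (median -0.094; 2 rises at an unadjusted p under 0.05, 1 by DESeq2, 0 by limma-voom). CDT1, which loads the replicative helicase, rose from 19.6, 16.3 and 23.4 CPM to 24.9, 26.1 and 31.7 CPM (log2 change 0.48 ± 0.11), MCM2, a helicase subunit, from 112, 105 and 123 CPM to 129, 143 and 155 CPM, and FEN1, a flap nuclease, from 55.2, 51.2 and 61.0 CPM to 65.3, 69.2 and 80.7 CPM. E2F1, which drives such genes, rose by 0.47 ± 0.09. None of the mitotic falls held in every omission: ESPL1, PTTG1 and TOP2A changed by -0.26 ± 0.09, -0.24 ± 0.08 and -0.24 ± 0.07, with no mitotic fall left without nonspecific library 2, paxillin library 1 or paxillin library 3, and 1 without nonspecific library 3. Mitotic falls numbered 5 without library 3 of paxillin siRNA under DHT and 8 with the replicate block. Mitotic rises numbered 2 without nonspecific library 3 or paxillin library 1 and with the block, and 1 without paxillin library 2 or library 3 of paxillin siRNA under DHT. Replication rises numbered 5 without nonspecific library 2 or paxillin library 3 and with the vehicle libraries alone, and 16 with the block and the GC and length correction together. The 1 replication fall became 0 without nonspecific library 2, nonspecific library 3 or paxillin library 3, 2 without nonspecific library 1 or paxillin library 1, and 3 with the block, alone or with that correction. In the DHT arm, where 6.34% of all tested genes rose and 7% fell, replication genes had 0 rises and 9 falls and mitosis genes 0 rises and 11 falls. The rises were 0 also at an unadjusted p under 0.05 and by DESeq2 and limma-voom. The test of the difference between the arms called 0 genes of either list (3 replication and 0 mitosis genes with the replicate block).

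Targets of p53 had 8 falls and 3 rises among 28 tested, with a median of -0.106. CCNG1, a cyclin of the p53 response, fell from 159.5, 162 and 148 CPM to 99.0, 75.1 and 52.97 CPM (log2 change -1.05 ± 0.15, edgeR adjusted p = 0.000156). MDM2, the ubiquitin ligase of p53, fell from 119.7, 127 and 121 CPM to 101, 92.1 and 83.5 CPM (log2 change -0.41 ± 0.08), and PLK3, a polo-like kinase, changed by -0.70. CDKN1A, encoding the cell cycle inhibitor p21, had 380.3, 318 and 339.9 CPM against 289.5, 281 and 269 CPM. Its call (edgeR adjusted p = 0.0181) was lost without nonspecific library 1 (0.085), paxillin library 2 (0.0583) or paxillin library 3 (0.0812). TNFRSF10C, a decoy receptor of TRAIL, rose by 0.86 ± 0.15. The falls numbered 5, 5 and 4 without nonspecific library 1, paxillin library 2 and paxillin library 3, and the rises 1 without paxillin library 3. Among 18 BCL2 family genes 5 rose and 2 fell (median -0.047). Among the risen ones were BIK and BID, which promote cell death (0.48 ± 0.08 and 0.29 ± 0.07). The rises numbered 3 with the GC and length correction, and the falls 4 with the replicate block. The falls were 0 without nonspecific library 2, paxillin library 1 or paxillin library 2, and 1 without nonspecific library 1, nonspecific library 3 or library 2 of nonspecific siRNA under DHT.

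Lipid genes moved in both directions. Of 28 fatty acid genes 5 rose and 5 fell (median 0.099), and of 26 cholesterol genes 5 rose and 3 fell (median 0.121). Among the ligases that activate fatty acids, ACSL5 and ACSL3 rose (1.70 ± 0.34 and 0.53 ± 0.09) while ACSL4 fell (-1.35 ± 0.18). ELOVL7, an elongase, fell from 150.2, 115.9 and 99.6 CPM to 86.0, 53.03 and 44.0 CPM (log2 change -0.99 ± 0.18), alongside SCD, and DGAT2, which makes triglyceride, rose by 0.26 ± 0.06. LSS, the lanosterol synthase, rose from 94.0, 85.7 and 106 CPM to 114, 132 and 144 CPM, while INSIG1, which restrains sterol synthesis, fell from 687, 699 and 745 CPM to 461, 531 and 589 CPM (log2 change -0.43 ± 0.08). HSD17B7, a late enzyme of the pathway, fell (-0.45 on the log2 scale). Cholesterol gene rises numbered 1 without nonspecific library 2 or paxillin library 3, 9 without paxillin library 1 or with no filter on low counts, and 11 with the replicate block. Fatty acid gene rises numbered 3 without nonspecific library 2 or paxillin library 3, and the falls 3 without nonspecific library 2 or paxillin library 2.

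Signalling lists held smaller sets of changes. Of 24 TGF-beta and BMP genes 1 rose and 6 fell (median 0.001). BAMBI, a decoy receptor that dampens this signalling, rose from 12.4, 17.1 and 17.4 CPM to 20.6, 28.6 and 29.2 CPM (log2 change 0.71 ± 0.18), while BMPR2, a BMP receptor, fell from 192, 195 and 158 CPM to 156, 127 and 129 CPM, and SMAD9, TGFBR3 and SKIL changed by -0.53, -0.42 and -0.44. The rises numbered 3 without nonspecific library 1 and with the replicate block, and 2 with limma-voom or with no filter. Of 28 Wnt genes 5 rose and 3 fell (median 0.011), with WNT5A, a ligand of the noncanonical pathway, at 45.8, 51.9 and 54.6 CPM against 67.7, 92.6 and 110.5 CPM (log2 change 0.82 ± 0.19), AXIN1 at 0.40 and FZD6, a receptor, at -0.37. Wnt rises numbered 3 without nonspecific library 2, nonspecific library 3 or paxillin library 3 and 8 with the replicate block, and falls 1 without paxillin library 3 or with the GC and length correction. Of 37 interferon response genes 6 rose and 0 fell (median 0.132; 0 falls also at an unadjusted p under 0.05 and by DESeq2 and limma-voom), with IRF1 at 1.63, 1.67 and 1.77 CPM against 3.02, 4.49 and 4.35 CPM and OAS3, a sensor of double-stranded RNA, at 8.72, 11.2 and 9.74 CPM against 15.2, 15.6 and 18.8 CPM. Interferon rises numbered 2 without nonspecific library 2 and 3 without paxillin library 3. Of 17 NF-kappaB and cytokine genes 3 rose and 1 fell (median 0.018), and IL6R, the interleukin 6 receptor, rose from 89.2, 89.3 and 87.3 CPM to 119, 141 and 175 CPM (log2 change 0.71 ± 0.10, edgeR adjusted p = 0.000141). The cytokine rises numbered 5 and the falls 2 without paxillin library 1 and with no filter on low counts, and the falls 2 with the replicate block.

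Glycolysis and hypoxia genes had 7 falls and 1 rise among 36 tested (median -0.059). VEGFA, a growth factor of blood vessels, fell from 354, 349.6 and 296 CPM to 262, 244 and 226 CPM (log2 change -0.45 ± 0.10, edgeR adjusted p = 0.00418). Without nonspecific library 2 or paxillin library 3 the falls numbered 1 and the rises 0, and the rises 2 with the replicate block. The falls numbered 4 without paxillin library 2 and with the vehicle libraries alone. Lysosome genes had 4 rises and 4 falls among 32 (median -0.037), with NPC1, a cholesterol exporter, rising from 127, 118 and 112 CPM to 157, 178 and 228 CPM and LAMP1, a membrane protein of the organelle, falling from 282, 251 and 249 CPM to 195, 153 and 159 CPM. The lysosome falls numbered 2 without nonspecific library 2, paxillin library 2 or paxillin library 3, and the rises 2 without paxillin library 3. Of 21 histone genes 4 rose and 2 fell (median 0.191), with H2AFX, the variant phosphorylated at DNA breaks, at 0.58 ± 0.09 and H1F0, a linker histone, at -0.67 ± 0.06. Histone genes occur in near-identical copies, so their values are uncertain. The histone rises numbered 7 with the replicate block and with no filter on low counts. Of 23 heat shock genes edgeR called 0 (median 0.128), with 7 rises at an unadjusted p under 0.05, 3 by DESeq2 and 2 by limma-voom, and 7 rises and 1 fall with the replicate block. AGO2, the slicing Argonaute that siRNA loads onto, rose from 96.3, 87.3 and 82.4 CPM to 138, 149 and 154 CPM (log2 change 0.73 ± 0.07, edgeR adjusted p = 8.47e-06). Both groups were transfected with an siRNA. AGO2 belongs to a list of 14 small RNA genes, of which 3 rose and 2 fell (median -0.003). The rises numbered 1 and the falls 0 without nonspecific libraries 2 or 3 or paxillin libraries 2 or 3, and the falls 1 without library 2 of either siRNA under DHT or with the GC and length correction.

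The remaining lists had counts of calls near or below those of all genes. Of 35 proteasome genes 2 rose and 4 fell (median -0.044). PSME1 and PSME2, activator subunits that interferon induces, rose by 0.23 ± 0.06 and 0.46 ± 0.08. The proteasome falls numbered 0 without nonspecific library 2, paxillin library 2 or paxillin library 3, 1 without nonspecific library 3, and 2 without nonspecific library 1, paxillin library 1, libraries 2 or 3 of nonspecific or library 2 of paxillin siRNA under DHT. Of 28 receptor tyrosine kinases and ligands 3 rose and 3 fell (median -0.043), EPHA3 among the falls. Their rises numbered 5, 1, 0 and 1 without nonspecific libraries 1, 2 and 3 and paxillin library 3, and the falls 6 with the replicate block. Of 31 genes of folding and export in the endoplasmic reticulum 1 rose and 2 fell (median 0.008). PDIA5, a disulfide isomerase, changed by 0.41 ± 0.09 and ERO1B, which oxidises such isomerases, by -0.80 ± 0.14. The falls there numbered 1 without any vehicle library except paxillin library 1, and the rises 2 with the block. Of 24 G1 cyclins, kinases and inhibitors 1 rose, E2F1, and 2 fell (median 0.024). The G1 falls numbered 1 without paxillin library 2 or 3, and the rises 2 without nonspecific library 3, paxillin library 1, or libraries 1 or 3 of paxillin siRNA under DHT, and with the block, DESeq2, the vehicle libraries alone or no filter. The G1 rises numbered 3 with the GC and length correction and 4 with that correction and the block.

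Few markers of other cell types were high enough to test. Of 6 neuroendocrine markers 4 were tested, of which 2 fell and 0 rose by edgeR (0 rises also at an unadjusted p under 0.05 and by DESeq2 and limma-voom), and the list summed to 38.3 to 45.8 CPM under nonspecific and 38.7 to 40.7 CPM under paxillin siRNA. INSM1, a transcription factor, was among the falls (-1.92 ± 0.44), which numbered 0 without nonspecific library 3 and 1 without paxillin library 2. Of 8 fibroblast markers 3 were tested and 1 fell, COL1A1 (-0.27 ± 0.09), a call lost without nonspecific library 1 or any paxillin library. The fibroblast markers summed to 39.7 to 50.1 against 35.8 to 37.6 CPM, without overlap, and their part in other changes was not tested. That sum was mostly COL1A1, with at least 584 counts in each vehicle library, while every other marker had no more than 55. The median log2 change of the 3 tested markers was 0.153. Endothelial markers summed to 10 to 13.9 against 8.3 to 13.1 CPM, and basal markers to 0.163 to 0.62 against 0.164 to 0.507 CPM.

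Further list counts moved by over 1.5 times under settings not named beside them above. With the block and the GC and length correction together, where 14.3% of all tested genes fell, the falls numbered 14 of androgen-induced genes, 13 of p53 targets, 10 each of ribosomal proteins and receptor tyrosine kinases, 9 of adhesion adaptors, 7 of proteasome genes, and 5 each of cholesterol and BCL2 family genes. They numbered 4 each of actin and histone genes, 2 each of immediate early, cytokine and mesenchymal genes, and 1 of heat shock genes. Under that setting, where 16% of all tested genes rose, the rises numbered 11 of cholesterol genes, 9 each of fatty acid and histone genes, 6 each of integrin and endoplasmic reticulum genes, and 5 each of p53 targets and heat shock genes. They numbered 4 each of TGF-beta, proteasome and mitosis genes, 3 each of glycolysis, BCL2 family and androgen-repressed genes, 2 of mitochondrially encoded genes and 1 of synthetases. With the correction alone, falls numbered 6 of receptor tyrosine kinases, 2 each of proteasome and mesenchymal genes, 1 of endoplasmic reticulum genes and 0 of immediate early genes, and rises 3 of heat shock and 2 of mitosis genes. With the vehicle libraries alone, falls numbered 2 each of proteasome and lysosome genes, 1 each of actin, BCL2 family and ribosomal protein genes and 0 of fibroblast markers, and rises 3 of luminal markers and 1 of heat shock genes. With no filter on low counts, rises numbered 7 of integrin, 4 of heat shock, 2 each of androgen-repressed, endoplasmic reticulum and glycolysis genes, and 1 each of mitosis, mitochondrially encoded and synthetase genes. Falls then numbered 2 each of ribosomal protein and proteasome genes and 0 of immediate early, replication and BCL2 family genes. RLE or upper-quartile scaling gave 1 rise each of mitosis and heat shock genes. Omission of paxillin library 1 gave 2 rises of androgen-repressed genes and 1 fall of endothelial markers. Without library 1 of paxillin siRNA under DHT 2 immediate early genes fell, and 1 heat shock gene rose without that library, nonspecific library 1, library 1 of nonspecific or library 3 of paxillin siRNA under DHT.

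**Figure D3:**
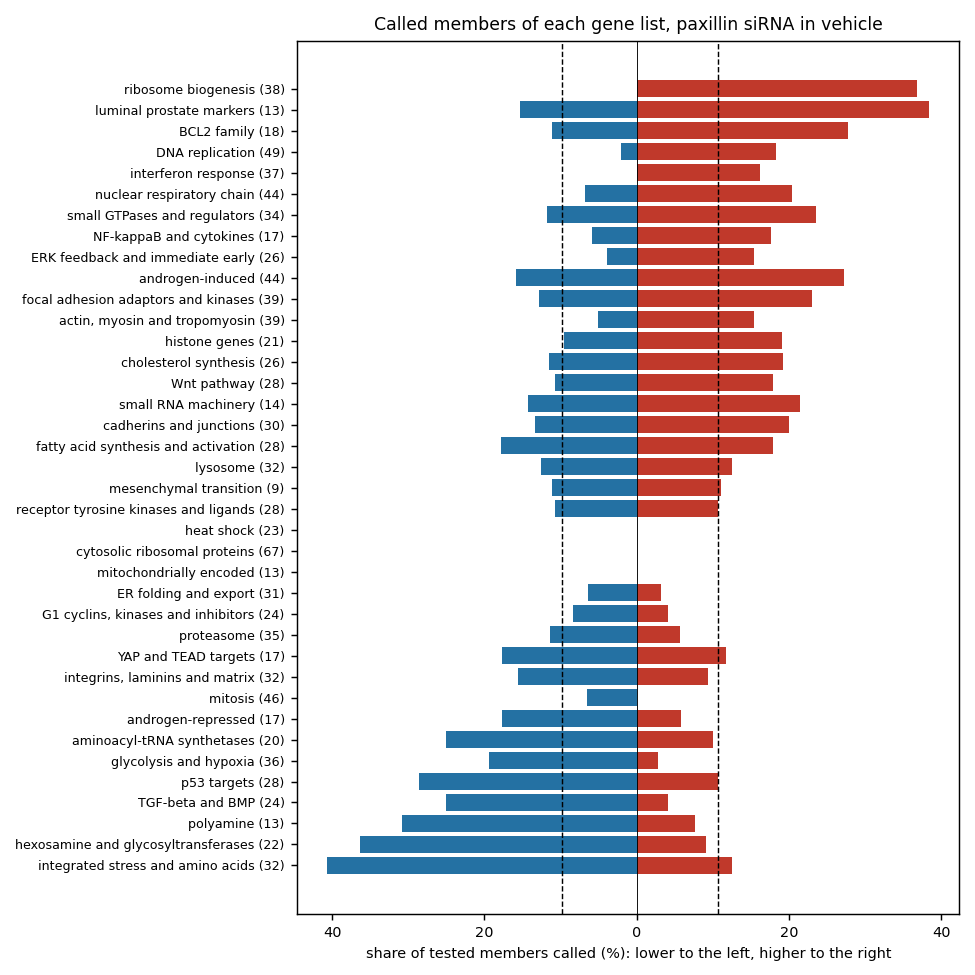
Share of tested members called higher (right, red) or lower (left, blue) under paxillin siRNA in vehicle, for the lists with at least 9 tested members (tested number in brackets). Dashed lines mark the shares over all tested genes, 10.7% higher and 9.78% lower; the integrated stress list reaches furthest to the left and the luminal marker and ribosome biogenesis lists furthest to the right.

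Changes differed by gene type and base composition. Processed pseudogenes, which are copies of transcripts set back into the genome, fell in larger share than protein-coding genes. Of 303 tested, 99 fell and 2 rose, with a median of -0.64, against 1322 falls and 1541 rises and a median of 0.001 for 12616 protein-coding genes. They made up 47 of the 83 genes that fell 4-fold or more. Their share of all counts was 0.067, 0.0921 and 0.0872% under nonspecific and 0.0647, 0.0637 and 0.0577% under paxillin siRNA. In the DHT arm 121 fell and 1 rose (median -0.961). Because a read from a parent gene can land on its copy, and the counting rule is not given in full, these values are uncertain. Genes with both group means under 1 CPM held 66 of the 83 falls of 4-fold or more and 26 of the 50 rises. The paxillin libraries held fewer detected genes at equal depth, as given above, and the part of that difference in the falls of low genes was not tested.

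Genes were split into 5 equal groups by the GC content of their longest GENCODE transcript. The median log2 change ran from -0.095 in the group with 29 to 41% GC to 0.109 in the group with 58.3 to 79.8%. The share called higher went from 4.1 to 23.4% and the share called lower from 19.3 to 4.82%. In pair 1 the medians went only from -0.042 to 0.021, and in the DHT arm from -0.022 to 0.037. Groups by transcript length ran the other way, from 0.042 for the shortest to -0.046 for the longest. That range was 0.045 to -0.055 in pair 1, 0.072 to -0.073 in pair 2 and only 0.011 to -0.018 in pair 3. In the DHT arm the order was reversed, from -0.021 for the shortest to 0.01 for the longest. With GC content and length corrected for, 2943 genes were called, of which 2381 were among the 3303. The part of base composition in the list counts was not tested beyond that correction.

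**Figure D4:**
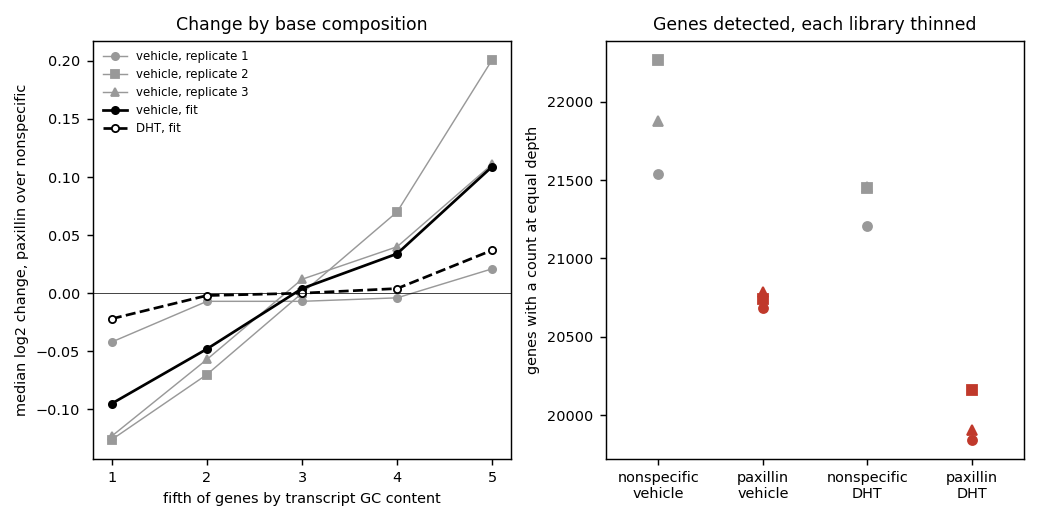
Left, median log2 change of genes under paxillin over nonspecific siRNA (vertical axis) in 5 equal groups of genes of rising transcript GC content (horizontal axis), for each replicate pair in vehicle, for the vehicle fit and for the DHT fit. Right, genes with at least 1 count after every library was thinned to 11944906 counts, by group, with symbols for replicates 1 (circle), 2 (square) and 3 (triangle); the paxillin libraries (red) lie below the nonspecific ones (grey) in both arms.

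The same siRNA comparison under DHT used 6 other libraries, and most vehicle changes had the same sign there. In the DHT arm 2149 genes were called (13.3%), 1021 higher and 1128 lower. With the replicate block that number was 3486, and it was 1269, 1386 and 1178 without library 2 of nonspecific siRNA, library 2 of paxillin siRNA and library 3 of paxillin siRNA under DHT. Of the 1727 vehicle rises, 637 were called higher in DHT too, 36.9% of the vehicle rises and 62.4% of the DHT rises. Of the 1576 vehicle falls, 700 were called lower in DHT too, 44.4% and 62.1%. Regardless of call, 93.6% of the vehicle rises and 93.4% of the falls kept their sign. Opposite calls were made for 4 genes, FNBP1L, DTL, LY6E and ARHGAP28, named because they are so few. PXN changed by -3.44, CRISP3 by 3.55, NOS3 by 2.76, S100P by -1.98 and PIK3AP1 by -1.66 under DHT. VAV3 and ANGPT2 changed by 1.20 and 0.41 there and were not called (edgeR adjusted p = 0.138 and 0.193). With the replicate block the VAV3 rise under DHT was called (edgeR adjusted p = 0.0268) and ANGPT2 was not (0.0586). The test of the difference between the arms called neither without the block. With the block ANGPT2 passed it (edgeR adjusted p = 0.00311) and VAV3 did not (0.319).

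**Figure D5:**
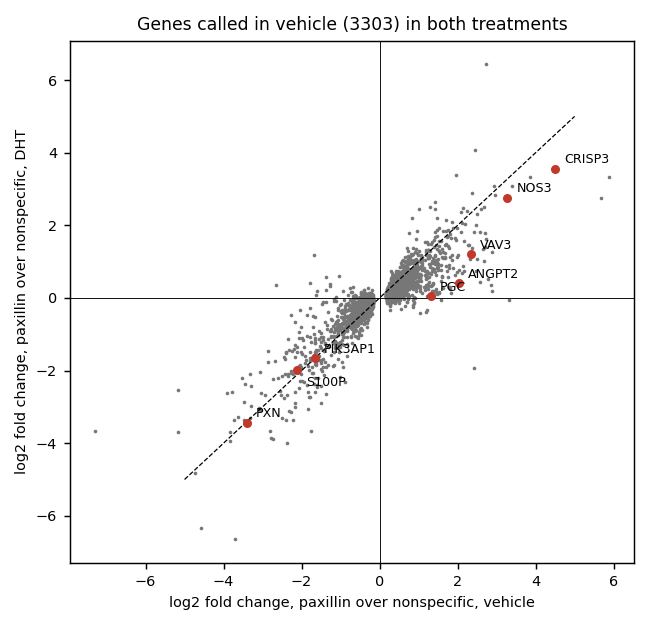
Log2 fold change under paxillin over nonspecific siRNA in vehicle (horizontal axis) and under DHT (vertical axis) for the 3303 genes called in vehicle, with the line of equal change dashed. Most points share the sign in both arms; PXN lies at -3.40 and -3.44, and PGC at 1.32 in vehicle and 0.04 under DHT.

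The difference between the arms was tested as an interaction. It was called for 8 genes (0.0496%), 6 of them with a higher effect under DHT (0.0372%) and 2 with a lower one (0.0124%). Of these, 5 are named below, since the rule took the 5 leading interactions, and 1435 genes had an unadjusted p under 0.05. KDM5A, a histone demethylase, fell in vehicle from 86.3, 93.0 and 84.3 CPM to 60.8, 61.3 and 57.3 CPM (log2 change -0.56 ± 0.06, edgeR adjusted p = 1.09e-05), and under DHT it changed by -0.01. PGC, the progastricsin gene, rose in vehicle from 2.94, 1.63 and 1.43 CPM to 4.14, 4.78 and 4.75 CPM (log2 change 1.32 ± 0.18), while under DHT its mean was 67.2 CPM with nonspecific and 69.3 CPM with paxillin siRNA. FAM129A, a stress-linked protein also known as Niban, and CITED2, a coregulator of CBP, fell in vehicle (log2 changes -0.47 ± 0.07 and -0.41 ± 0.07) and changed by 0.14 and 0.14 under DHT. CDC42EP3, an effector of CDC42 that binds septins, changed by 0.20 ± 0.12 in vehicle and rose under DHT by 1.29. The number of genes with a called interaction was 97 with the replicate block, 54 with DESeq2, 0 with limma-voom and 142 with no filter on low counts. It was 26, 11 and 4 without library 1 of paxillin vehicle, paxillin DHT and nonspecific DHT, 7 without library 1 of nonspecific vehicle, and 0 without any of the other 8 libraries.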

How the data were processed

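RNA of 12 C4-2 libraries (TruSeq stranded mRNA) was counted per gene. The authors deposited raw counts for 56269 gene symbols, made, per the submitters' processing notes, with Trimmomatic 0.36, STAR 2.5.2b and featureCounts of Subread 1.5.0p3 on GRCh38. Its annotation release and strand setting were not found in the labels or notes used here, so antisense, overlapping and copied genes are uncertain. All 12 libraries were fitted in edgeR 4.0.16 (R 4.3.3) with 4 group means, TMM scaling and filterByExpr (minimum count 10, total 15), which kept 16115 genes. The quasi-likelihood test gave the siRNA difference in each arm and the interaction. Benjamini-Hochberg adjusted p under 0.05 was a call. Standard errors are the log2 fold change over the square root of F.

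Same-numbered libraries deviated together over 9283 genes: their 18 correlations were 0.177 to 0.513, against -0.454 to 0.241 in 36 other pairs. The pairing comes from the label numbers and this check, and blocked values are given where they change a printed call of a named gene or move a vehicle list count by over 1.5 times.

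Results were recomputed with DESeq2 1.42.0, limma-voom 3.58.1, upper-quartile or RLE scaling, all genes kept, the replicate block, the comparison's libraries alone, an adjusted p of 0.01 and omission of each library. Corrections for GC content and length, alone and with the block, on 13947 genes matched to GENCODE release 29, were added after the data were seen. Named genes were the 15 largest rises and 15 largest falls with separated groups and a mean of at least 5 CPM, leaving out clone names and pseudogenes, the 8 most abundant calls, up to 4 risen and 4 fallen per list, a fixed panel and the 5 leading interactions. The comparison, the 43 lists and the panel were chosen with earlier results of these data known. On simulated counts for the vehicle comparison (16115 genes, 50 changed per fold), 28, 54, 84 and 90% were called at 1.25, 1.5, 2 and 3-fold, with 8 false calls among 15915 unchanged genes. The share of genes changed there was smaller than the share called in the data, so these rates may not carry over. Some named genes are not reported here.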

Additional observations from a re-analysis of the deposited data

Results flagged for a closer look

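The interaction test of edgeR's quasi-likelihood fit, with Benjamini-Hochberg adjustment, called a difference between the DHT and vehicle arms for 5 named genes. These 5 were named because they lead that test, so their being called is not a separate result. For CDC42EP3 the log2 effect under DHT minus that in vehicle was 1.09 (adjusted p = 0.0368), with mean levels of 13.5 and 15.4 CPM in vehicle and 27.4 and 67.0 CPM under DHT for nonspecific and paxillin siRNA. KDM5A differed by 0.55 (adjusted p = 0.0368), with 87.9 and 59.8 CPM in vehicle and 56.4 and 56.0 CPM under DHT. PGC differed by -1.28 (adjusted p = 0.0436), with 2.00 and 4.56 CPM in vehicle and 67.2 and 69.3 CPM under DHT. FAM129A differed by 0.61 (adjusted p = 0.0436), with 51.6 and 37.2 CPM in vehicle and 77.2 and 85.1 CPM under DHT. CITED2 differed by 0.55 (adjusted p = 0.0436), with 43.6 and 32.8 CPM in vehicle and 49.7 and 54.7 CPM under DHT. The adjusted p-values lie close to the threshold, and no interaction was called by limma-voom. With 1 library left out the number of genes called was 0 to 26.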

How the results depend on the processing

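In vehicle 1848 to 3524 genes were called with 1 library left out, 4557 with the replicate number as a block and 1651 at an adjusted p under 0.01. With the block 3302 of the 3303 calls were also made, with the block and the GC and length correction 4213 genes were called, and the other alternatives gave 2786 to 3480. Under DHT the number was 1178 to 2417 with 1 library left out, 3486 with the block, 3532 with the block and the GC and length correction, and 954 at an adjusted p under 0.01. The interaction was called for 0 to 26 genes with 1 library left out, 142 with no filter, 54 with DESeq2, 0 with limma-voom or at an adjusted p under 0.01, 97 with the block, 4 with the GC and length correction and 83 with both; the cause was not tested. The log2 change of PXN in vehicle stayed between -3.56 and -3.32 with 1 library left out. Over all alternatives, 1479 list counts moved by no more than 1.5 times and 285 by more, while for named genes 4636 values kept direction and side of the threshold, 360 lost and 10 gained a call. Sign changed for uncalled genes near 0. SRC had -0.017 and -0.019 with the GC and length correction alone and with the block, and -0.005 to 0.094 with 1 library left out. The lowest and highest values with 1 library left out were -0.082 and 0.144 for LPXN, -0.025 and 0.037 for FKBP5, and -0.337 and 0.076 for TMPRSS2. At this depth 54% of simulated 1.5-fold changes in vehicle were called. The simulation changed 50 genes per fold, far fewer than the 3303 called in the data, and the adjusted p depends on that share. Its rate may therefore not hold for the data, where differences of that size can still be missed.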
